A study of Mus musculus with 4 samples.

Results

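The type III receptor tyrosine kinases are Kit, Flt3, Csf1r, Pdgfra and Pdgfrb, the receptors for stem cell factor, Flt3 ligand, colony stimulating factor 1 and the platelet-derived growth factors. They were taken by gene symbol from a table of read counts, and were 5 of the 35927 genes with counts. The counts came from mRNA sequencing of mouse fetal liver erythroid progenitors at E13.5 of gestation, sorted as CD71+ and TER119-, on a C57BL/6 background. Mutant libraries came from Rcor1-/- embryos, and control libraries from a mixture of Rcor1+/+ and Rcor1+/- embryos in a proportion not given in the sources used here. Each group had 2 libraries, each made from the pooled RNA of several livers, so an n of 2 counts pools and not embryos. Rcor1 encodes the scaffold of the CoREST repressor complex, and the design asks which transcripts depend on it in these cells.

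These receptors share an extracellular part built of immunoglobulin-like domains and a kinase domain split by an insert. A dimeric ligand brings a pair of receptors together, and the kinases then phosphorylate each other and recruit adaptors, phosphatidylinositol 3-kinase and Src family kinases. Kit is the receptor through which stem cell factor keeps erythroid progenitors alive and dividing, and it is lost as erythroblasts mature. Flt3 is known from early multipotent and lymphoid progenitors, Csf1r from monocytes and macrophages, and both platelet-derived growth factor receptors from mesenchymal cells.

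The mutant libraries held 25186819 and 15053229 counts, and the control libraries 26892375 and 22817080. Rcor1 itself had 2061 and 1240 counts in mutant libraries, against 4083 and 3807 in control libraries. All 12 listed erythroid markers were detected in every library and all 12 were lower in mutants (11 with library totals alone, where Kel had an adjusted p of 0.181 by edgeR, and 11 without mutant replicate 1 or mutant replicate 2, where Tfrc had 0.0702 and 0.0677). They had a summed level of 5163 to 5245 CPM in mutant libraries and 8094 to 8236 CPM in control libraries. CPM is the usual count scaled by library total, with the TMM factor applied. Of 13140 genes tested with edgeR's quasi-likelihood test, 57.5% passed at a Benjamini-Hochberg adjusted p of 0.05, 28.3% higher and 29.2% lower in mutants, and in 77.9% the groups did not overlap. A call in these data is therefore common, and each receptor's call is read against those shares.

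Kit, Flt3 and Pdgfra lie on chromosome 5. The 250 bases before the annotated start of the chromosome 5 genes are shown because Flt3 and Pdgfra changed and Kit, which lies next to Pdgfra, did not pass the test. They are from RefSeq on GRCm38.p6, not the mm9 build of the files, at chr5:75574737-75574986 on the plus strand for the first of 2 Kit starts, chr5:147400490-147400739 on the minus strand for Flt3 and chr5:75152001-75152250 on the plus strand for Pdgfra. Each is written 5′ to 3′ along the annotated strand of the gene, and capitals mark the motif matches named after them. First bases of GENCODE M21 transcripts were found in the same direction in the promoter sequences of Kit and Flt3, but not of Pdgfra. The start and direction of the Pdgfra window thus rest on the RefSeq annotation alone.
Kit: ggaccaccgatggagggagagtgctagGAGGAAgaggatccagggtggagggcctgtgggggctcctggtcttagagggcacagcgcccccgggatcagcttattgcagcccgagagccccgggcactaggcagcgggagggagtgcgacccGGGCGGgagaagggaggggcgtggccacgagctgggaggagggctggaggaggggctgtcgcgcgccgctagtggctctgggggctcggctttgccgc
Flt3: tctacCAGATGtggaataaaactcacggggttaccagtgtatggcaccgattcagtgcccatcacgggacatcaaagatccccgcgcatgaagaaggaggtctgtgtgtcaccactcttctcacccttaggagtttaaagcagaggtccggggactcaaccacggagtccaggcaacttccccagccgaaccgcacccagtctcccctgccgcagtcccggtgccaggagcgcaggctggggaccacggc
Pdgfra: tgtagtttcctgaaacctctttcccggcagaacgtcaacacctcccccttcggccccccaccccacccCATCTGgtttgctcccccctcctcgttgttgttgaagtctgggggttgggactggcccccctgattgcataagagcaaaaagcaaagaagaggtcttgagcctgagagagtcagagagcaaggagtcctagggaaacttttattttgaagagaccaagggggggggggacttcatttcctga
Both strands were searched for the GATA words AGATAA or AGATAG or TGATAA or TGATAG, the Gfi words AAATCA or AAATCT, the PU.1 word GAGGAA, the GC box GGGCGG, the E-box words CAGATG or CAGCTG, and TATAAA. The Kit window held 1 GAGGAA and 1 GGGCGG, words found in 23.3% and 32.7% of 32851 promoter windows of that length. The Flt3 and Pdgfra windows each held 1 CAGATG, on the plus strand in Flt3 and the minus strand in Pdgfra, and E-box words occurred in 25.5% of windows. GATA words (26.5% of windows), Gfi words (22.9%) and TATAAA (12.4%) had no match in these 3 windows. GC content was 70.8% for Kit, 59.2% for Flt3 and 54.4% for Pdgfra, against a median of 52.4% over all windows.

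Kit was by far the most abundant receptor in both groups and the difference in its level did not pass the test. Kit had 5041 and 3110 counts in mutant libraries, against 4714 and 4112 in control libraries. Its level was 194 ± 5.24 CPM in mutants and 186 ± 2.99 CPM in controls (SD, n = 2 libraries each, as for every SD here). Single libraries stood at 190.5 and 197.9 CPM among mutants and at 184.3 and 188.6 CPM among controls, so the groups did not overlap, though the gap between them was narrow. On the log2 scale, mutant over control was 0.06 ± 0.05 (SE), with a 95% interval from -0.04 to 0.16, and it did not pass (edgeR adjusted p = 0.312). That interval holds folds from 0.971 to 1.12. The difference depended on the scaling: with library totals alone, where 38.9% of all genes were called higher and 19.4% lower, it was 0.19 (edgeR adjusted p = 0.00162), and with upper quartile scaling 0.13 (edgeR adjusted p = 0.0226). In the authors' deposited table Kit was likewise called, at a log2 fold change of 0.19 and an adjusted p of 0.0225.

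The 4 other receptors were scarce and each was higher in mutants. Flt3 had 55 and 30 counts in mutant libraries, against 2 and 4 in control libraries. Both mutant libraries stood far above both control libraries, at 2.08 and 1.91 CPM in mutants and 0.0782 and 0.183 CPM in controls. The level was 1.99 ± 0.12 CPM in mutants and 0.131 ± 0.0744 CPM in controls, a log2 fold change of 3.93 ± 0.43 (edgeR adjusted p = 6.72e-07). In folds this was 15.2, with a 95% interval from 8.08 to 28.7, and the counting interval of the pooled ratio of 15.9 ran from 7.02 to 44.6. The size rested on 6 control reads: the fit gave 3.40 without control replicate 1 and 4.57 without control replicate 2, both past the threshold.

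Csf1r had 213 and 117 counts in mutant libraries, against 71 and 80 in control libraries. Its level was 7.75 ± 0.427 CPM in mutants and 3.22 ± 0.631 CPM in controls, and both mutant libraries were above both control libraries. The log2 fold change was 1.28 ± 0.17 (edgeR adjusted p = 4.45e-06), a fold of 2.43 with a 95% interval from 1.91 to 3.11. Csf1r was the best measured of the 4 scarce receptors, with the smallest standard error among them.

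Pdgfrb had 55 and 24 counts in mutant libraries, against 17 and 8 in control libraries. The level was 1.8 ± 0.39 CPM in mutants and 0.516 ± 0.211 CPM in controls, and the groups did not overlap. Its log2 fold change was 1.81 ± 0.34 (edgeR adjusted p = 0.000238). Pdgfra had 16 and 11 counts in mutant libraries, against 5 and 3 in control libraries, or 0.652 ± 0.0674 CPM in mutants and 0.167 ± 0.041 CPM in controls. Its log2 fold change of 1.89 ± 0.52 passed (edgeR adjusted p = 0.00523), but with DESeq2 the adjusted p was 0.0984 and without control replicate 2 it was 0.0561, in a range over all alternatives that began at 0.00176. The counting interval of the pooled Pdgfra ratio of 3.79 ran from 1.68 to 9.65.

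The expression filter bears on these calls. A gene was tested if at least 2 libraries reached 0.417 CPM of the library total. Kit and Csf1r met this in both groups, whereas Flt3 and Pdgfra met it in no control library and Pdgfrb in 1, so these 3 were tested because mutants expressed them. Among the 936 genes kept by the mutant libraries alone, 64.1% were called higher. Among the 12043 kept by both groups, 25.9% were called higher and 31.3% lower. Genes that reached 0.417 CPM in only 1 library of each group are counted, here and below, as kept by both groups. With DESeq2, 20.7% of all genes were called higher and 24.3% lower. Flt3, Csf1r, Pdgfra and Pdgfrb were each called higher with a fold of at least 2. Of all tested genes 11.7% met both conditions, and uncalled genes of such a fold are not in that share. In the authors' deposited table, where 55.3% of 13234 genes had an adjusted p under 0.05, the log2 fold changes were 4.13 for Flt3, 1.43 for Csf1r, 2.06 for Pdgfra and 1.96 for Pdgfrb. Scaled by library totals only, the values computed here were 4.06 for Flt3, 1.42 for Csf1r, 2.03 for Pdgfra and 1.94 for Pdgfrb.

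**Figure D1:**
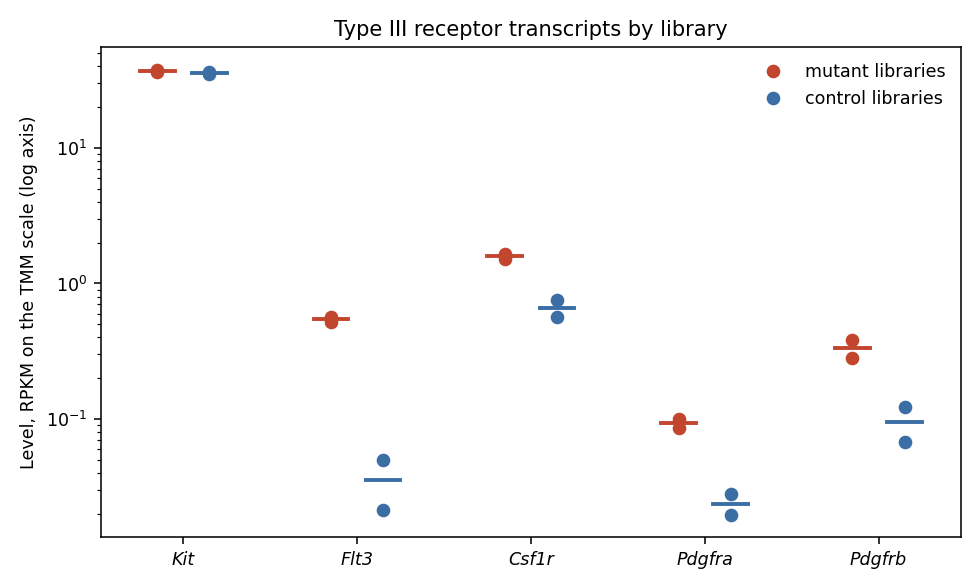
Level of each type III receptor transcript in every library, in RPKM on the TMM scale, on a log axis. Points are libraries and bars their mean, with mutant left of control. Kit stands near 36 in both groups, while Csf1r, Flt3, Pdgfrb and Pdgfra sit lower and each is higher in both mutant libraries than in either control library.

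Levels were compared between receptors per exon length, using the exons of coding transcripts in GENCODE M21 (RPKM). That annotation is later than the one behind the counts, so these levels are approximate. In mutants the mean was 37.0 RPKM for Kit, 1.59 for Csf1r, 0.545 for Flt3, 0.333 for Pdgfrb and 0.0932 for Pdgfra, and no neighbours in that order overlapped between libraries. In controls it was 35.5 RPKM for Kit, 0.66 for Csf1r, 0.0954 for Pdgfrb, 0.0358 for Flt3 and 0.0238 for Pdgfra. Flt3, at 0.0214 and 0.0502 RPKM, and Pdgfra, at 0.0279 and 0.0197 RPKM, overlapped in controls. Flt3 thus ranked above Pdgfrb in mutants and below it in controls, where it had 6 reads in all.

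Ratios within a library do not depend on scaling between libraries. Kit took 93.1% and 93.9% of the summed RPKM of the 5 receptors in mutant libraries, against 97.9% and 97.6% in control libraries. Csf1r took 4.23% and 3.80% in mutant libraries, against 1.59% and 2.04% in control libraries, and Flt3 1.46% and 1.30%, against 0.0597% and 0.136%. The RPKM ratio of Kit to Csf1r was 22.0 and 24.7 in mutant libraries, against 61.7 and 47.8 in control libraries. The ratio of Csf1r to Flt3 was 2.90 and 2.92 in mutant libraries, against 26.6 and 14.97 in control libraries. The ratio of Pdgfrb to Pdgfra was 4.45 and 2.82 in mutant libraries, against 4.40 and 3.45 in control libraries, and here the groups overlapped. These ratios carry no test, since with 2 libraries a group the smallest p an exact permutation test allows is 0.33 (two-sided).

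The receptors' neighbours in the genome, taken from RefSeq gene order on GRCm38.p6, did not all move with them. Kit lies between Pdgfra and Kdr, a receptor for vascular endothelial growth factor. Kdr had 91 and 56 counts in mutant libraries, against 36 and 35 in control libraries, and its log2 fold change was 1.22 ± 0.21 (edgeR adjusted p = 0.000124), so the genes on both sides of Kit rose, Pdgfra with the limits given above. Flt3 is separated by Pan3, a poly(A) nuclease subunit gene, from Flt1, another receptor for vascular endothelial growth factor. Flt1 had 79 and 34 counts in mutant libraries, against 14 and 13 in control libraries, and its log2 fold change was 2.20 ± 0.30 (edgeR adjusted p = 7.47e-06), whereas Pan3 had 0.20 ± 0.20 and did not pass (edgeR adjusted p = 0.474). Pdgfrb and Csf1r are next to each other on chromosome 18, and Hmgxb3, the named gene on the other side of Csf1r, fell (-0.40 ± 0.06, edgeR adjusted p = 1.26e-05).

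Transcripts of the ligands were scarce in the sorted cells, with a summed level of 6.81 to 7.25 CPM in mutant libraries and 4.45 to 4.46 CPM in control libraries. Of the 8 ligand genes 4 were tested and 2 rose, or 50%, against 28.3% of all genes tested. Pdgfb, which encodes a chain that binds both platelet-derived growth factor receptors, had 64 and 29 counts in mutant libraries, against 16 and 17 in control libraries, and its log2 fold change was 1.64 ± 0.30 (edgeR adjusted p = 0.000144). Kitl, which encodes stem cell factor, had 37 and 24 counts in mutant libraries, against 22 and 18 in control libraries. Its log2 fold change of 0.78 ± 0.30 passed narrowly (edgeR adjusted p = 0.0342), and did not pass with DESeq2 (0.265) or when any 1 library was left out (0.0933 to 0.139).

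Flt3l, the ligand of Flt3, had 66 and 36 counts in mutant libraries, against 58 and 42 in control libraries (0.19 ± 0.22, edgeR adjusted p = 0.472). Csf1, a ligand of Csf1r, had 16 and 14 counts in mutant libraries, against 7 and 10 in control libraries (0.98 ± 0.45, edgeR adjusted p = 0.0736). It passed with library totals alone (1.12, edgeR adjusted p = 0.0416) and with the replicate number as a block (edgeR adjusted p = 0.0481). The other 4 ligand genes were too scarce to test. Pdgfd had no read in either mutant library and 8 in each control library. Its level was at least 4.75-fold lower in mutants, with 3 counts over both mutant libraries as the limit that a count of 0 allows. That bound takes the control reads as exact and leaves out the spread between pools. Il34, the second ligand of Csf1r, had 1 read in all, Pdgfa had 3 and 4 counts in mutant libraries against 2 and 2 in control libraries, and Pdgfc 5 and 0 against 1 and 0. No ligand was called lower by edgeR or DESeq2, nor at an unadjusted edgeR p under 0.05 (0 genes), except that Pdgfd was called without the filter on low counts.

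Beyond the type III class, 53 other receptor tyrosine kinase genes were in the table and 27 were tested. Of these 14 rose and 13 did not pass, so 51.9% were called, against 57.5% of all genes tested, and 51.9% rose, against 28.3% of all genes. The median log2 fold change was 0.59, against 0.00945 over all genes tested. None fell with edgeR or DESeq2, 0 at an unadjusted edgeR p under 0.05. Ephb1, an ephrin receptor too scarce for the filter with 3 and 5 counts in mutant libraries and 17 and 9 in control libraries, was called lower without the filter and when mutant replicate 2 or control replicate 2 was left out. Restricted to the 22 genes kept by both groups, 10 rose and 12 did not pass. Another 5 were kept by mutant libraries alone, and 4 of them rose, Mst1r among them. Of all genes kept that way 64.1% were called higher. The highest rise was that of Tek, the angiopoietin receptor shared by endothelial and stem cells, at 5.49 ± 0.335 CPM in mutants and 0.647 ± 0.136 CPM in controls (3.05 ± 0.24). Met, the receptor for hepatocyte growth factor, averaged 11.9 ± 1.22 CPM in mutants and 2.19 ± 0.888 CPM in controls (2.40 ± 0.20). Mst1r, its relative that binds macrophage stimulating protein, rose by 2.50 ± 0.51 on the log2 scale, but without mutant replicate 1 its adjusted p was 0.0629 and its value 1.71.

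Of 49 genes that relay the receptors' signals 46 were tested, 22 rose and 13 fell, with a median log2 fold change of 0.19. These were 47.8% higher and 28.3% lower, against 28.3% higher and 29.2% lower over all genes tested, so the share that fell was near that of all genes. The largest rises were those of the guanine nucleotide exchange factor Vav3 (2.43 ± 0.24), the tyrosine kinase Fes (2.09 ± 0.22) and the exchange factor Rasgrp2 (1.47 ± 0.12). The largest falls were those of the adaptor Sh2b2 (-1.12 ± 0.24), Hras1 (-0.88 ± 0.05), which encodes the H-Ras GTPase, and the MAP kinase kinase Map2k2 (-0.73 ± 0.06). Among genes chosen after their values were seen for known roles beside Kit, the adaptor Gab2 averaged 159 ± 2.88 CPM in mutants and 71.5 ± 1.35 CPM in controls (1.15 ± 0.05, edgeR adjusted p = 8.45e-12). The phosphatidylinositol 3-kinase subunit Pik3cd (1.20 ± 0.06) and the Src family kinase Lyn (0.76 ± 0.08) also rose, and Stat5b, a transcription factor downstream of Kit and the erythropoietin receptor, fell (-0.32 ± 0.05). Pik3r1, a regulatory subunit of the same kinase, changed by 0.88 ± 0.30 and did not pass (edgeR adjusted p = 0.118), although it passed without the robust option (0.000384) and with DESeq2 (0.0191).

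Of 37 genes that restrain the receptors 36 were tested, 21 rose, 3 fell and 12 did not pass, with a median log2 fold change of 0.43. These were 58.3% higher and 8.33% lower, against 28.3% higher and 29.2% lower over all genes tested. Of the 33 kept by both groups 19 rose, 3 fell and 11 did not pass. Socs1, an inhibitor of cytokine and Kit signalling, averaged 10.8 ± 1.83 CPM in mutants and 0.533 ± 0.0897 CPM in controls (4.37 ± 0.23, edgeR adjusted p = 5.95e-11). The MAP kinase phosphatase gene Dusp5 (3.57 ± 0.29) and Ptprc (3.28 ± 0.24), which encodes the CD45 phosphatase of white blood cells, followed; Dusp5 reached the filter in mutant libraries alone. The 3 falls were those of Lrig1 (-2.13 ± 0.19), a membrane protein that promotes the loss of growth factor receptors, Ubash3a (-0.66 ± 0.05) and the adaptor gene Dok1 (-0.33 ± 0.07). Lrig1 averaged 1.88 ± 0.408 CPM in mutants and 7.94 ± 1.05 CPM in controls.

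Of 24 tested transcription factor genes known to act at the receptor genes, 12 rose and 8 fell, with a median log2 fold change of 0.30. These were 50.0% higher and 33.3% lower, against 28.3% higher and 29.2% lower over all genes tested. Of the 22 kept by both groups 11 rose, 7 fell and 4 did not pass. The largest rises were those of Fli1 (3.32 ± 0.17), of Sfpi1 (2.96 ± 0.13), which encodes PU.1, an activator of Csf1r and Flt3, and of Meis1 (2.29 ± 0.15), an activator of Flt3. The largest falls were those of Fos (-1.28 ± 0.46), Zfpm1 (-0.55 ± 0.08) and Gata1 (-0.55 ± 0.04). Zfpm1 encodes the GATA1 cofactor FOG1, and Gata1 is known to shut off Kit as erythroid cells mature. Fos was kept by the filter through control libraries alone, where it was high. Fos had 6 and 7 counts in mutant libraries, against 21 and 15 in control libraries, and lost its call with DESeq2 (adjusted p = 0.249) and without mutant replicate 1 (0.306), control replicate 1 (0.178) or control replicate 2 (0.0509).

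**Figure D2:**
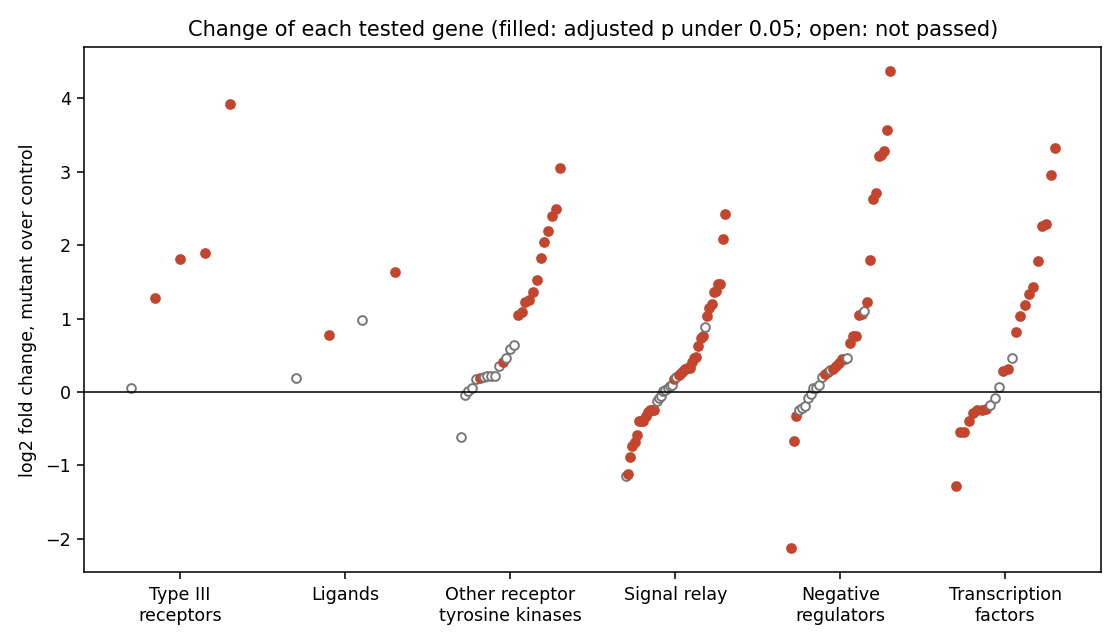
Log2 fold change of mutant over control for each tested gene, one point a gene, sorted within each group of genes; filled points passed an adjusted p of 0.05 and open points did not. Kit is the open point of the type III receptors, at 0.06, and the other 4 run up to 3.93 for Flt3; falls below -1 are seen among the signal relay, negative regulator and transcription factor genes.

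Markers of the cells in which the scarce receptors are best known moved unevenly. Calls in each marker list below are read against the 28.3% higher and 29.2% lower over all genes tested. A summed level weighs the most abundant markers of its list most. In these bulk libraries, fewer cells of a type and less RNA per cell cannot be told apart. Of 23 macrophage and monocyte markers 16 were tested, 8 rose, 1 fell and 7 did not pass. Of the 11 kept by both groups 5 rose and 6 did not pass. Of the rises, 3 were kept by mutant libraries alone, that of Ccr2 among them. The only fall, that of Marco, was kept by control libraries alone. The rise of Emr1 (0.54, edgeR adjusted p = 0.046) was lost with DESeq2 (0.279), with limma-voom (0.0596), without the filter (0.0888) and when any 1 library was left out (0.077 to 0.166). The list summed to 48.0 to 48.9 CPM in mutant libraries and 23.7 to 24.6 CPM in control libraries. The rises were led by the chemokine receptor gene Ccr2 (3.45 ± 0.36), lysozyme (Lyz2, 2.97 ± 0.21) and the Fc receptor gene Fcgr3 (2.58 ± 0.25). Marco, a scavenger receptor of macrophages, fell (-2.97 ± 0.30), the complement genes C1qa, C1qb and C1qc did not pass (-0.08, 0.32 and 0.11, with C1qa at 0.06 under library totals alone), and Cd163 had 0 counts in all 4 libraries. The part of such cells in the change of Csf1r was not tested.

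Of 20 mesenchymal and stellate cell markers 14 were tested, 8 rose and 6 did not pass; 0 fell with edgeR, at its unadjusted p under 0.05 or with DESeq2, where 6 rose. Of the 14, 8 were kept by mutant libraries alone and gave 4 of the rises, Lum and Postn among them, and 64.1% of all such genes were called higher; of the 6 kept by both groups 4 rose. They summed to 46.2 to 48.2 CPM in mutant libraries and 21.5 to 21.9 CPM in control libraries. The rises were led by Lum (2.50 ± 0.51), Postn (2.10 ± 0.45) and the collagen gene Col3a1 (1.82 ± 0.18), matrix genes of fibroblasts, and Acta2 did not pass. Des, with 14 and 11 counts in mutant libraries, against 10 and 0 in control libraries, had 1.48 and did not pass (edgeR adjusted p = 0.112). Des did pass without the filter (0.0361), with edgeR's exact test (0.0225), limma-voom (2.64, adjusted p = 0.0204) and the replicate block (0.0187), and without control replicate 1 (6.68, adjusted p = 0.000988), which left a control count of 0. The pericyte marker Cspg4 had 5 and 0 counts in mutant libraries, against 2 and 4 in control libraries. The part of such cells in the changes of Pdgfra and Pdgfrb was not tested.

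Of 13 stem and multipotent progenitor markers 9 were tested and 8 rose, led by Cd34 (4.08 ± 0.13), Slamf1 (3.10 ± 0.40) and Angpt1 (2.87 ± 0.30), of which Slamf1 and Angpt1 were kept by mutant libraries alone; of the 7 kept by both groups 6 rose. Slamf1 was 3.69 without control replicate 1. Hlf did not pass, and 0 fell with edgeR, at its unadjusted p under 0.05 or with DESeq2. They summed to 76.5 to 77.7 CPM in mutant libraries and 15.6 to 15.7 CPM in control libraries. Of 16 lymphoid and dendritic progenitor markers 5 were abundant enough to test: Irf8 (2.16 ± 0.20), Satb1 (0.99 ± 0.18) and Tcf4 (0.30 ± 0.10) rose, Zbtb46 fell (-0.44 ± 0.06) and Lck did not pass. Tcf4 lost its call without mutant replicate 2 (edgeR adjusted p = 0.187) and without control replicate 1 (0.144). Il7r, the interleukin 7 receptor gene of lymphoid progenitors, had 9 and 4 counts in mutant libraries and none in control libraries, and Siglech had 0 counts in all 4. The list summed to 132 to 138 CPM in mutant libraries and 143 to 151 CPM in control libraries. The part of such cells in the change of Flt3 was not tested.

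Mast cells keep Kit for life. Of 11 mast cell markers 4 were tested: Cpa3 (3.76 ± 0.36), Hdc (1.89 ± 0.17) and Slc18a2 (0.65 ± 0.16) rose and Il1rl1 fell (-1.59 ± 0.11). Slc18a2 lost its call with DESeq2 (adjusted p = 0.0572) and without mutant replicate 1 (edgeR adjusted p = 0.0637), and Cpa3 was kept by mutant libraries alone. The protease genes Mcpt4 and Tpsab1 had 0 counts in all 4 libraries, and Cma1 at most 1 count in any. The list summed to 24.1 to 24.5 CPM in mutant libraries and 26.7 to 28.7 CPM in control libraries. That sum was lower in mutants although 3 of the 4 tested markers rose. Kit stood at 190.5 to 197.9 CPM in mutant libraries and 184.3 to 188.6 CPM in control libraries. The part of such cells in the level of Kit was not tested.

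Markers of 3 other cell types of the fetal liver were measured too. Of the tested endothelial, hepatoblast and megakaryocyte markers 45.5%, 69.2% and 83.3% rose, against 28.3% of all genes tested. Endothelial markers summed to 192 to 194 CPM in mutant libraries and 191 to 194 CPM in control libraries. Among 11 tested, Tek, Pecam1 (2.15 ± 0.16), Esam (1.70 ± 0.27), Tie1 and Kdr rose and Eng fell (-0.60 ± 0.08). Cdh5, Egfl7, Lyve1, Stab2 and Ramp2 did not pass. Tek, Tie1 and Kdr were already counted among the other receptor tyrosine kinases. Hepatoblast markers summed to 1400.0 to 1404 CPM in mutant libraries and 1031 to 1042 CPM in control libraries. Of 13 tested 9 rose, led by Krt18 (1.38 ± 0.21), Hnf4a (0.65 ± 0.10) and Trf (0.57 ± 0.10). With DESeq2 8 rose, and with library totals alone 11. Fgb lost its call with DESeq2 (adjusted p = 0.192) and without the filter (edgeR adjusted p = 0.092). Megakaryocyte markers summed to 393 to 395 CPM in mutant libraries and 128 to 133 CPM in control libraries, and 10 of 12 rose, led by Plek (3.74 ± 0.09), Mmrn1 (3.11 ± 0.17) and Clec1b (2.84 ± 0.21), while Vwf fell (-0.59 ± 0.09).

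**Figure D3:**
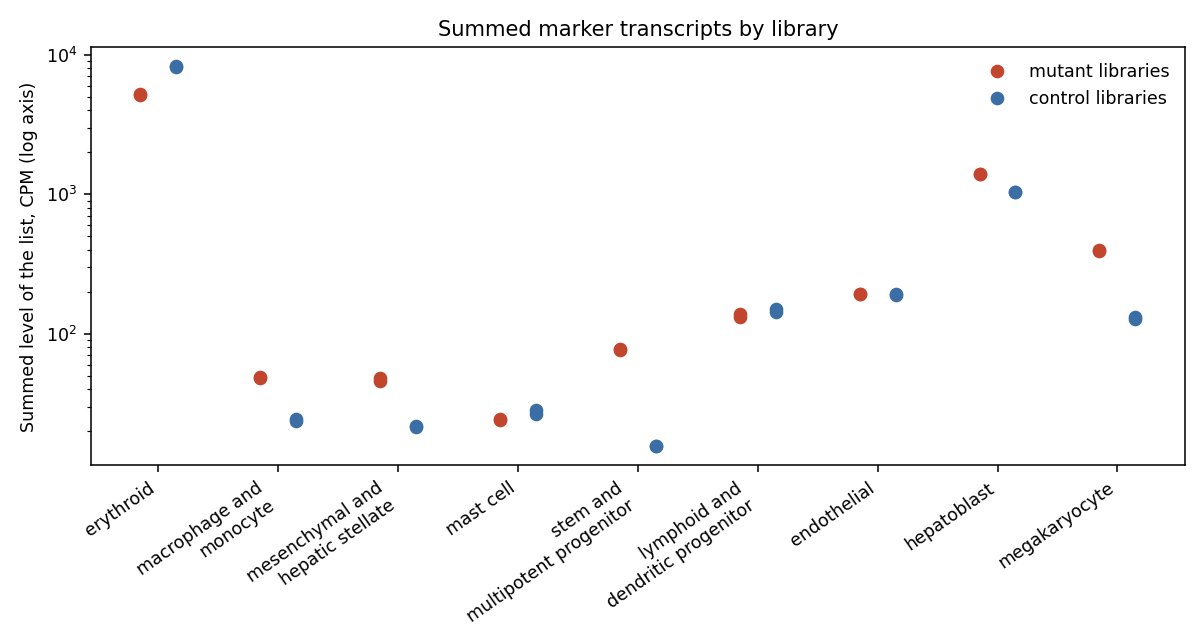
Summed level of each marker list in every library, in CPM on a log axis, with mutant points left of control points. The stem and progenitor list stands at 76.5 to 77.7 CPM in mutants and 15.6 to 15.7 CPM in controls, and the erythroid list is lower in mutants; libraries of a group lie close together in every list.

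The genes with the most similar profiles were found by the distance between log2 CPM over the 4 libraries, each centred on its own mean, among 7804 genes whose better expressed group averaged 10 CPM or more. Closest to Kit were Htatsf1, Bri3bp and Nrd1 (distances 0.00352, 0.00931 and 0.00998), but 3020 genes lay within 0.25 of Kit, so a flat profile like that of Kit was common. Closest to Flt3 were St8sia4, Gnaq and Sla (0.154, 0.233 and 0.336), and 2 genes lay within 0.25. Closest to Csf1r were Zfp516, Gfod1 and the granule protease gene Prtn3 (0.132, 0.153 and 0.155). Closest to Pdgfra were Serpinh1, a collagen chaperone gene, Tnrc18 and the phospholipase gene Plcg2 (each 0.136 to 0.147), and closest to Pdgfrb were Rasgrp2, the lipoxygenase gene Alox12 and Serpinh1 (0.355, 0.372 and 0.439). With 4 libraries in 2 groups these profiles hold little beyond the size of the change, taken after 0.1 was added to CPM. That offset lowers the change of scarce genes most. The genes named as closest to Flt3 had log2 fold changes of 3.16 to 3.38, against 3.93 for Flt3. Those closest to Pdgfra had 1.38 to 1.53, against 1.89 for Pdgfra.

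**Figure D4:**
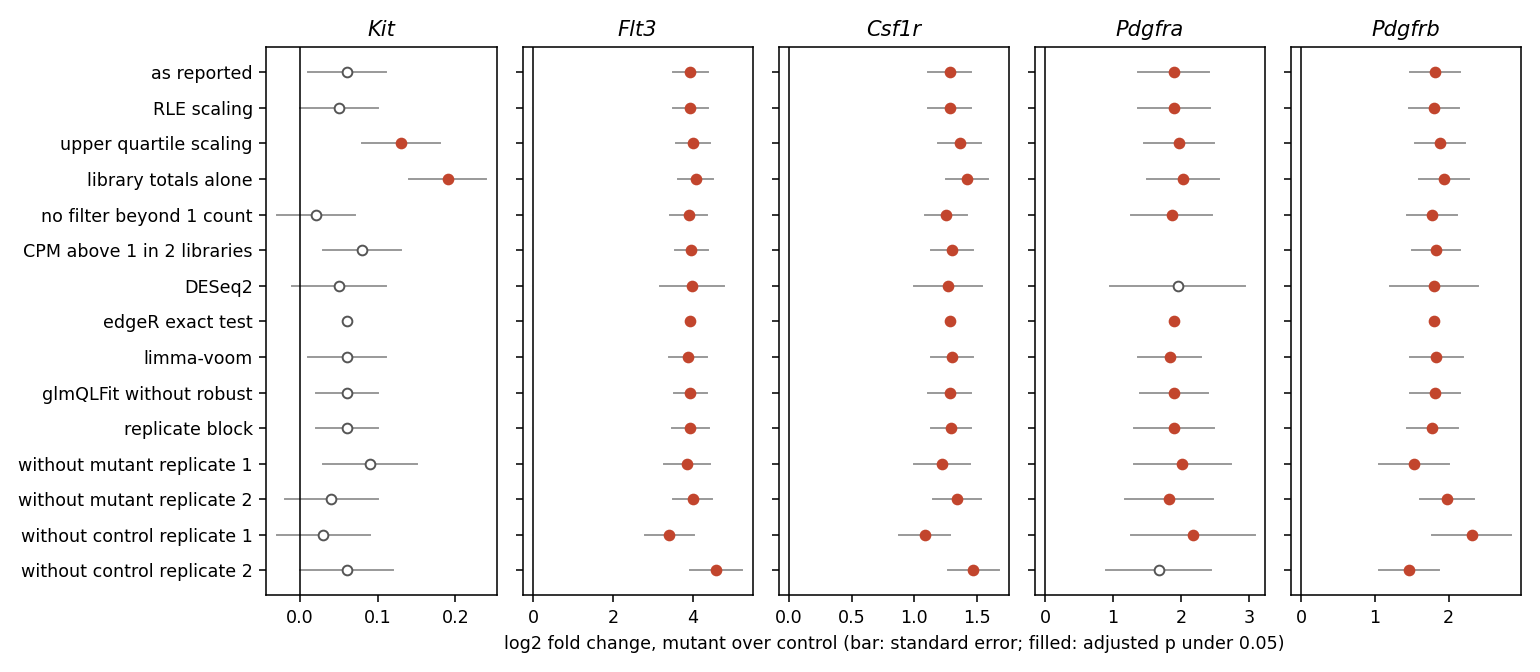
Log2 fold change of mutant over control for each receptor as reported and under each alternative setting, with its standard error where the test gives one; filled points passed an adjusted p of 0.05. Kit stays between 0.02 and 0.19 and passes under 2 scalings, Flt3, Csf1r and Pdgfrb pass under every setting drawn, and Pdgfra has no point where the stricter filter removed it.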

How the data were processed

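The authors deposited a table of raw read counts per gene and the output of their differential expression test whose columns, per the file headers, hold log2 fold changes with p-values; totals differ between libraries, as raw counts do. FastQC, Bowtie, edgeR and the mm9 genome are named in the submitters' processing notes, with no version, while the counter, its strand setting and its handling of shared reads are not stated there. Columns named WT were taken as the control samples of the same number. Of 35939 rows, 12 mitochondrial rows without values were left out.

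Counts were fitted with edgeR 4.0.16 (R 4.3.3, limma 3.58.1): filterByExpr left 13140 genes, then TMM, estimateDisp, glmQLFit with robust and glmQLFTest of mutant over control, two-sided, Benjamini-Hochberg adjusted over all tested genes at 0.05. The fit was first run on simulated counts with the same dispersion for every gene and few changed genes. These data differ in both respects, so that run checks the code only. Standard errors were derived from each fold change and its F statistic, and 95% intervals use the moderated degrees of freedom; counting intervals are exact binomial and cover counting error only. Chi-square per gene was 3.55 between mutant libraries and 5.67 between control libraries over genes of at least 100 counts, so all 4 libraries were kept as separate replicates; p-values measure the spread between such pools. Alternatives were other scalings, filters and tests (DESeq2 1.42.0 among them), a replicate block and each library left out.

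Profile distances added 0.1 to CPM. The receptors and gene lists were chosen with earlier results of these data known, so no list was tested as a set. Named genes were all receptors and ligands, and up to 3 rises and 3 falls of each list among called genes whose groups did not overlap. The 3 nearest profiles of each receptor, and the genes behind some but not all counts of up to 5, were named too. Any other named gene, genomic neighbours and further markers included, was chosen after its values were seen. Of the list entries, only Cebpb was not found by symbol. Some genes are shared between lists, Gata1 and Meis1 among them.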

Additional observations from a re-analysis of the deposited data

How the results depend on the processing

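Flt3, Csf1r and Pdgfrb kept their direction and call under all 14 alternatives, with log2 fold changes from 3.40 to 4.57, 1.08 to 1.47 and 1.46 to 2.31. Kit kept its direction, from 0.02 to 0.19, but passed with upper quartile scaling (0.13, adjusted p = 0.0226) and library totals alone (0.19, adjusted p = 0.00162), within a range of adjusted p up to 0.807. Pdgfra lost its call with DESeq2 (1.95, adjusted p = 0.0984) and without control replicate 2 (leave-one-out range 1.67 to 2.17), and the stricter filter, CPM above 1 in 2 libraries, left it untested. Why a call moved was not tested, beyond the construction of each setting. Library totals alone put the median over all genes at 0.15 on the log2 scale, against 0.00945 as reported, and the calls at 5112 higher and 2553 lower, against 3723 and 3835 as reported.

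Of the ligands, 1 gene rose without the filter, with DESeq2 and with any 1 library left out (range 1 to 1), against 2 as reported, and 1 fell without the filter. Of the other receptor tyrosine kinases, 1 fell without the filter, and 0 to 1 with a library left out, against 0 as reported. The signal relay, negative regulator and transcription factor counts stayed within 1.5 times, and scaling moved their rises to at most 27, 25 and 13.

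Samples shared only a replicate number. Over genes, the deviations of mutant replicate 1 and control replicate 1 from their group means correlated at 0.119. With 2 libraries a group, the deviations of replicate 2 mirror those of replicate 1, so this value cannot establish pairing. With the replicate number as a block, 4135 genes were higher and 4267 lower, and Kit had 0.06 (adjusted p = 0.2), Flt3 3.93, Csf1r 1.29, Pdgfra 1.89 and Pdgfrb 1.78. Depth limits Flt3 and Pdgfra most, with 6 and 8 control reads.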
